A study of Mus musculus with 4 samples.

Results

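The 33 genes described here are the transporters and enzymes that take glucose to lactate, 2 enzymes that steer that flux, a set of genes that hypoxia-inducible factor (HIF) is known to switch on, and Hif1a itself. They were chosen by gene symbol from 22547 genes counted in each library, by a rule that names no value but was drawn up with earlier results of these data known, and fall into 2 glucose transporters, 16 enzymes, 2 lactate transporters, 2 switches, 10 HIF-induced genes and Hif1a. All 33 were found. UMIs (molecules counted once) were summed over the cells of a type and given as UMIs per 1000000 (CPM). The 3′ method counts a transcript once whatever its length, so CPM can be set side by side between genes.

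The study sorted GFP+ cells from the lungs of Gramd2creERT2;mTmG mice, in which a drug-activated Cre expressed from Gramd2, a gene known from AT1 cells, switches a cell and its descendants from tdTomato to GFP. The sorted cells are the day 0 library. The rest were grown as organoids with MLg fibroblasts, a mouse lung line, in growth factor-reduced Matrigel on inserts, in DMEM/F-12 with 10% serum, insulin-transferrin and SB 431542, an inhibitor of TGF-beta receptors, and were enriched with EpCAM beads before the libraries of days 8, 13 and 20. Each day is 1 library, so differences between days rest on single libraries without replication, no test was possible, and day cannot be told apart from library, dissociation or enrichment. Day 0 shares the genotype and label with the other days but no culture. The number and age of the mice and the drug that activated Cre were not stated in the labels.

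Glycolysis turns glucose into pyruvate in the cytosol and lactate dehydrogenase reduces pyruvate to lactate, which leaves the cell with a proton through monocarboxylate transporters. When oxygen is plentiful, prolyl hydroxylases of the Egln family mark HIF alpha subunits for destruction. When oxygen falls HIF persists, binds DNA at sites with the core RCGTG, and raises many glycolytic genes together with genes of mitophagy, collagen hydroxylation and oxygen sensing. Alveolar type 2 (AT2) cells make surfactant, and alveolar type 1 (AT1) cells are the thin cells of gas exchange.

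Cells were gated by marker genes. The 4 libraries held 7350, 7893, 9311 and 9178 cells after filtering, with a median of 2558.5, 17075, 9527 and 12791 UMIs, so day 0 is the shallowest. The AT2 gate held 79, 290, 311 and 432 cells on days 0, 8, 13 and 20. All 12 of its marker genes were detected on each day, but the gate takes cells by these genes, so this does not show its purity. AT1 cells numbered 439 on day 0 and 3, 15 and 17 afterwards, ciliated cells 453 and then 9, 26 and 19, and endothelial cells 1429 and then at most 3, so these types were not compared between days. Although the sort was for GFP and the colonies were enriched for EpCAM, macrophages made up 17.4%, 82.2%, 62.3% and 49.2% of the cells (1281, 6491, 5798 and 4515), followed in culture by fibroblasts (127, 395, 900 and 2475 over the 4 days). Airway secretory cells reached 50 cells on days 13 and 20 (250 and 67) and basal cells on day 13 (153). Between 25 and 41 cell barcodes were shared by any pair of libraries. A gene counted as called where the ratio reached 2-fold in either direction, with 20 CPM or more on the larger side and a 95% interval of the ratio that left out 1. Intervals here are exact Poisson or binomial and cover counting error only, not the spread between animals or cultures.

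The upstream sequence of the members was searched for ACGTG on either strand, the part of the HIF core that is shared by many of its sites, from 250 bases before to 50 after the start site. RefSeq's promoter table (GRCm38.p6) held 30 of the 33 members. The motif was in 20 of them, in 8 of 8 HIF-induced promoters, in 7 of 16 enzyme promoters, and in 5315 of 27025 promoters over all genes (19.7%). The 4 members with the largest day 8 to day 0 ratio in AT2 cells among those with a match are printed, on the gene's strand with matches in capitals. They lie at chr14:45318523-45318822 (Ero1l, minus strand), chrX:106186850-106187149 (Pgk1, plus), chr7:46845554-46845853 (Ldha, plus) and chr8:45999801-46000100 (Ankrd37, minus).
Ero1l: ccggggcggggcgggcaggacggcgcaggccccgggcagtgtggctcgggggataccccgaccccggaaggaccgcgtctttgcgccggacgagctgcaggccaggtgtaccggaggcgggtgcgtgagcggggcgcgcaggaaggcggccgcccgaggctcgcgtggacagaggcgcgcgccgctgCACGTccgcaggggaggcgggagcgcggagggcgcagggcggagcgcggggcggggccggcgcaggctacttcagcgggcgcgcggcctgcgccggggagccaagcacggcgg
Pgk1: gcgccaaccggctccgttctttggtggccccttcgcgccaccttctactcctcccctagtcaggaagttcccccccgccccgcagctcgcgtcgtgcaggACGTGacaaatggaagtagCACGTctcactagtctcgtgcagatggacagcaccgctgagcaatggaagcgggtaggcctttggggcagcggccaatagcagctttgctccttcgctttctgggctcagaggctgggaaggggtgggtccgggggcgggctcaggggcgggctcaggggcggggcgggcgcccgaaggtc
Ldha: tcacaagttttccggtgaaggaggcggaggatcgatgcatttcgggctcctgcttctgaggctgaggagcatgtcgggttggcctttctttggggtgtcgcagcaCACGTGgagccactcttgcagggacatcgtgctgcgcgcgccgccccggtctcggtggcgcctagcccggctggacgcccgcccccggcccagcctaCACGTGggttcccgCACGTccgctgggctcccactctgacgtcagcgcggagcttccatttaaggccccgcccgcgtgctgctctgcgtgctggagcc
Ankrd37: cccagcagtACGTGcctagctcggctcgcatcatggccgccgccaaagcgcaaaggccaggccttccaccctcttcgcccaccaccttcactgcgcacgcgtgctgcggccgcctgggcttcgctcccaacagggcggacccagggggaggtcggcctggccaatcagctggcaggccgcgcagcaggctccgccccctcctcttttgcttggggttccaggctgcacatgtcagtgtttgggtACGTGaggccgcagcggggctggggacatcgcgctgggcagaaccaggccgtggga
Ldha held 5 matches, 4 of them from a pair of palindromic CACGTG words that read as a match on both strands. Pgk1 and Ankrd37 held 2 each and Ero1l held 1. A match describes these letters only. Eno1, which had the largest ratio of all members in AT2 cells, held no match in this window, and neither did Pkm, Tpi1 or Aldoa.

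In freshly sorted cells the types differed in some of their lactate, hydroxylase, hexokinase and lower glycolytic genes. Gapdh, the dehydrogenase of the middle of the pathway, was at 328 CPM in AT1, 357 in AT2, 495 in ciliated, 348 in endothelial and 268 in fibroblast cells, and at 1162 CPM in macrophages. Against AT1 cells, AT2 cells had 6 of 25 tested members called higher and 7 lower, where 12.1% and 27.2% of all genes were called. The count of lower members is thus near the share over all genes. Of 14 enzymes that reached 20 CPM in either gate, 2 were higher (Hk2 and Ldhb) and 3 lower. These 3 were Pfkp (7.71 CPM from 3 UMIs against 77.7), Pgam1 (41.1 against 104) and Eno1 (15.4 against 60.8). Hk2, the inducible hexokinase, had no UMI among 1300248 in AT1 cells and 84.8 CPM in AT2 cells, 36.8-fold higher with the AT1 side set at a floor of 3 UMIs. P4ha1 and P4ha2, the catalytic subunits of collagen prolyl hydroxylase, went the other way, with 213 and 155 CPM in AT1 cells. They were at 72.0 and 33.4 CPM in AT2, 25.2 and 16.5 in ciliated, 33.3 and 1.71 in macrophage, 61.9 and 20.6 in fibroblast and 24.9 and 17.1 in endothelial cells. AT1 cells thus had the highest level of both genes among these 6 gates. Pfkfb3, whose product makes the activator of phosphofructokinase, was at 58.5 CPM in AT1, 49.4 in endothelial and 100.3 in fibroblast cells, but at 0 in AT2 and 2.06 in ciliated cells.

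Ciliated cells of day 0 differed from AT1 cells in their lactate genes among others. They had 8 members called higher and 6 lower (24.4% and 19.3% of all genes). Ldhb, the subunit that favours lactate use, was at 767 CPM in ciliated and 114 CPM in AT1 cells. The lactate exporter Slc16a3 was at 66.3 CPM in ciliated cells and at 0 in AT1 cells, 28.7-fold higher against the floor of 3 UMIs. Macrophages of day 0 held Slc16a3 as well. Slc2a1, the widespread glucose transporter, was at 83.8 CPM against 9.23. Ankrd37, an ankyrin-repeat protein induced by HIF, was at 44.2 CPM against 13.1. Macrophages had 5 members called higher and 5 lower than AT1 cells (21.3% and 26.3% of all genes), fibroblasts 2 and 6 (20.9% and 18.7%), and endothelial cells 3 and 4 (22.2% and 16.3%). Ndrg1, a stress-induced gene, was among the 3 higher in endothelium, at 74.9 CPM against 0.77 from 1 UMI, a log2 ratio with an interval of 4.11 to 11.92. These counts are out of 27, 23, 24 and 25 members that reached 20 CPM in the ciliated, macrophage, fibroblast and endothelial comparisons, so most of them do not stand far from the shares over all genes.

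**Figure D1:**
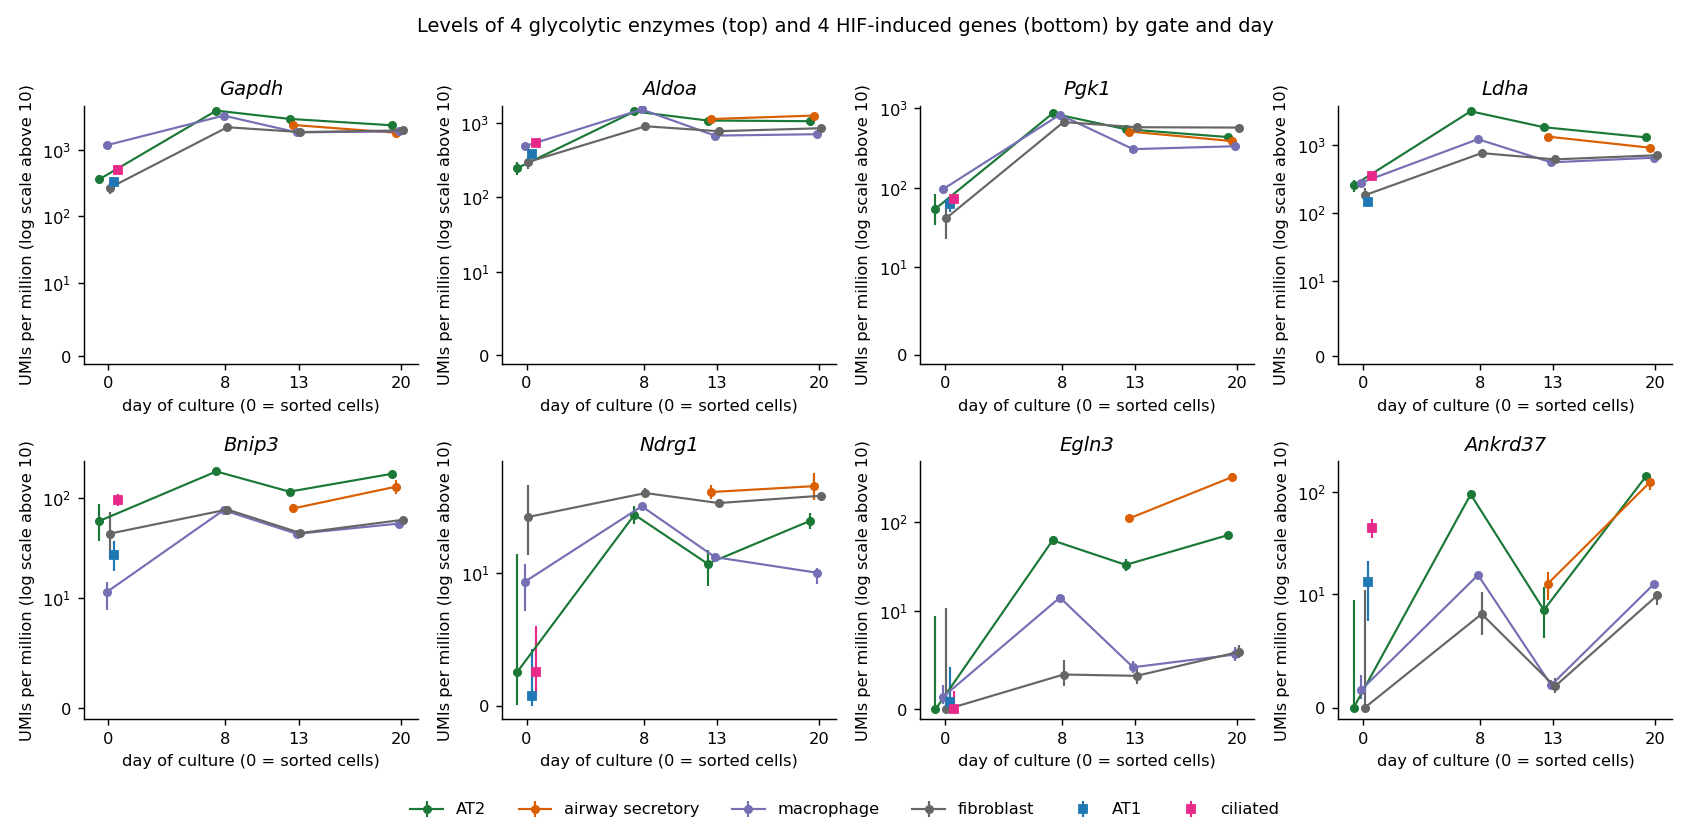
CPM (vertical axis, log scale above 10) of 4 enzymes (top) and 4 HIF-induced genes (bottom) against day of culture, for gates with at least 50 cells; bars are 95% Poisson intervals and a line joins the days of 1 gate. The enzymes lie highest on day 8 in AT2 cells and macrophages, and Ankrd37 dips on day 13 in AT2 cells, macrophages and fibroblasts.

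In the AT2 gate most of the pathway was higher on day 8 than on day 0. There, 23 of 33 members were called higher and 1 lower, where 11.7% of the 6223 genes tested were called higher and 18% lower. Of the 33, 31 reached 20 CPM on either day. Among the 16 enzymes 12 were called higher and none lower, with a median log2 ratio of 2.66, while the median over all genes was -0.15. Eno1, the enolase, was at 15.4, 283, 130.2 and 70.6 CPM on days 0, 8, 13 and 20, which made day 8 18.3-fold higher than day 0. Pgk1, the first ATP-making step, was at 54.0, 859.6, 544 and 433 CPM and was 15.9-fold higher on day 8. Ldha, the subunit that makes lactate, was at 252, 3097, 1806 and 1279.7 CPM, 12.3-fold higher on day 8. Pgam1, the mutase between Pgk1 and Eno1, was at 41.1, 451, 250.3 and 237 CPM, 11.0-fold higher. For these 4 enzymes day 0 was lowest and day 8 highest, and the Poisson interval of day 0 overlapped with none of the culture days. Gapdh was at 357, 3860, 2897 and 2322 CPM and was the most abundant member on each day.

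The hexokinases at the head of the pathway were not called. Hk1 was at 20.6, 34.2, 28.6 and 27.8 CPM and Hk2 at 84.8, 46.4, 21.2 and 36.8 on days 0, 8, 13 and 20. Pfkl and Pfkp, isoforms of the committing step, were called higher (125 against 18 CPM and 44.4 against 7.71), the latter from 3 UMIs on day 0, with an interval of 0.96 to 4.81 on the log2 scale. Pfkm stayed under 20 CPM on each day. Ldhb was not called, at 257, 179, 262 and 299 CPM. Both glucose transporters were at 0 UMIs on day 0. Slc2a1 then stood at 41.6, 14.3 and 20.2 CPM and Slc2a3, the high-affinity transporter better known from neurons, at 74.2, 133 and 114 CPM. With day 0 set at the floor of 3 UMIs, they were 5.40-fold and 9.63-fold higher on day 8. The exporter Slc16a3 had 1 UMI on day 0 and 62.0, 17.6 and 15.5 CPM in culture. Slc16a1, the other monocarboxylate transporter, was not called at 48.8, 38.8, 36.7 and 37.4 CPM, and neither was the switch Pdk1, the kinase that closes pyruvate dehydrogenase, at 25.7, 26.2, 25.8 and 29.1 CPM.

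Of the 10 HIF-induced genes, 8 were called higher in AT2 cells on day 8 and none lower, with a median log2 ratio of 1.80. Ero1l, an oxidase of disulfide formation in the endoplasmic reticulum, was at 10.3, 183, 77.7 and 150.1 CPM, 17.8-fold higher on day 8 than on day 0. Ankrd37 was at 0, 94.7, 8.61 and 143 CPM and Egln3, an oxygen-sensing prolyl hydroxylase that HIF itself induces, at 0, 62.7, 33.2 and 72.1 CPM. Against a floor of 3 UMIs these are 12.3-fold and 8.14-fold higher on day 8. Ndrg1 had 1 UMI on day 0 and 30.8, 12 and 27.3 CPM afterwards. Bnip3 and Bnip3l, receptors of mitophagy, were higher by less (186 against 59.1 and 289 against 134 CPM), as were P4ha2 (75.6 against 33.4) and Higd1a, a small mitochondrial protein (892 against 231). P4ha1 and Egln1 were not called. The exception to the direction was Hif1a, the oxygen-regulated alpha subunit of HIF, at 121, 57.7, 54.8 and 46.6 CPM, which was called lower by 1.07 on the log2 scale. HIF is known to be set mainly by protein stability, which these data do not measure.

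Values that differed between the day 0 and day 8 AT2 cells beside the members included depth, the cell cycle and the airway secretory markers in the gate. The median depth was 4041 and 11373 UMIs per cell, and cells with at least 3 of the cycling markers made up 0% and 25.2%. With cells holding any cycling marker left out, the median enzyme ratio was 2.69, and with each cell thinned to 2000 UMIs it was 2.58. Airway secretory markers summed to 48022 CPM in the AT2 gate on day 0, with 6 of the 12 at 0, and to 14961 CPM on day 8. In the AT1, macrophage, fibroblast and endothelial gates of day 0 they summed to 6029, 6574, 6519 and 8223 CPM. Whether the make-up of the day 0 AT2 gate has a part in the ratios was not tested. The free RNA share, read from surfactant genes in macrophages, was 6.02% on day 0 and 5.73% on day 8. With the library's free RNA subtracted the median enzyme ratio was 2.70. Macrophage markers summed to 144, 194, 277 and 133 CPM and fibroblast markers to 102.8, 63.0, 169.9 and 198 CPM in the 4 AT2 gates, against 12305 or more in the macrophage and 6103 or more in the fibroblast gates. Fos, which dissociation is known to raise, was at 316, 257, 122 and 69.7 CPM.

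**Figure D2:**
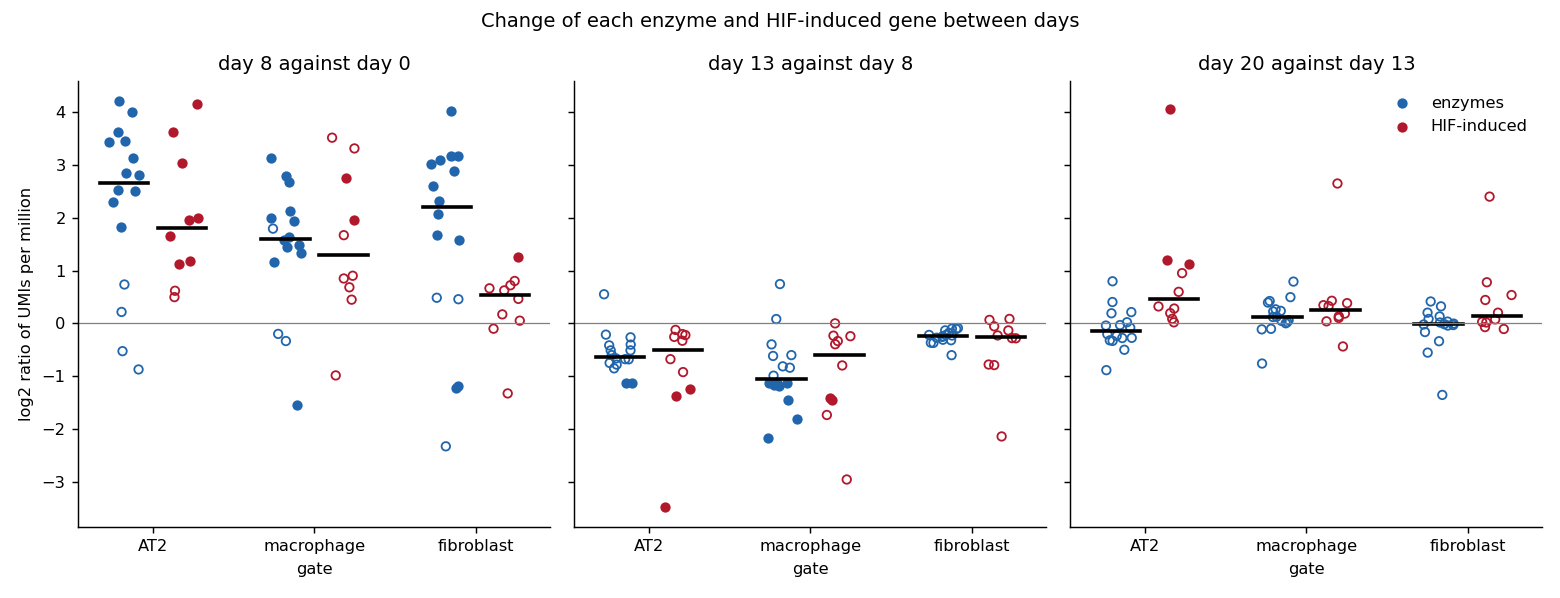
Log2 ratio of CPM (vertical axis) of each of 16 enzymes (blue) and 10 HIF-induced genes (red) in 3 gates for 3 steps between days; filled points are called, black bars are medians, and members with fewer than 3 UMIs on a side are drawn with that side at 3 UMIs. In AT2 cells the medians of both groups lie above 0 on day 8 against day 0, with 2 of the 16 enzymes below 0. On day 20 against day 13 the HIF-induced genes have a median of 0.46 while the enzymes have -0.14.

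In AT2 cells both groups were lower on day 13 than on day 8, and from day 13 to day 20 their medians differed in sign, a difference that was not tested. On day 13 against day 8 none of the members was called higher and 7 were called lower, where 1.05% and 2.47% of all genes were called. They were Slc2a1, Hk2, Eno1, Slc16a3, Ankrd37, Ndrg1 and Ero1l. All 10 HIF-induced genes lay below a ratio of 1, with a median of -0.50 on the log2 scale, and 15 of 16 enzymes did so with a median of -0.63. On day 20 against day 13 the 3 members called higher were all HIF-induced, Ankrd37 (16.7-fold), Ndrg1 (2.28-fold) and Egln3 (2.17-fold), and none was called lower. Over all genes 1.85% were called higher and 1.97% lower. All 10 HIF-induced genes lay above 1 with a median of 0.46, and 11 of 16 enzymes lay below 1 with a median of -0.14, near the all-gene median of -0.05. The call of Egln3 was lost at a 3-fold threshold, and that of Ndrg1 under 3 of 13 alternative settings. Cells with at least 3 cycling markers were 10.3% and 3.70% of these AT2 gates, and with all cells holding any cycling marker left out the HIF-induced median was 0.44. Epithelial cells that no type gate took (214, 624 and 349 on days 8, 13 and 20) had 8 members called lower and none higher on day 13 (1.37% and 3.36% of all genes) and 6 called higher and none lower on day 20 (2.71% and 4.25%). Their HIF-induced medians were -0.91 and 0.91. In macrophages and fibroblasts most HIF-induced genes lay on the same sides. On day 13 against day 8, 9 of 10 lay below 1 in macrophages (median -0.59) and 8 of 10 in fibroblasts (-0.25). On day 20 against day 13, 9 of 10 lay above 1 in macrophages (0.26) and 8 of 10 in fibroblasts (0.14). A change of the cells and a property of the day 13 library cannot be told apart here.

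Ankrd37 had the deepest trough. In AT2 cells thinned to 2000 UMIs it was seen in 38 of 283 cells on day 8 (13.4%, Clopper-Pearson interval 9.68 to 18%), in 2 of 307 on day 13 (0.651%, 0.0790 to 2.33%) and in 86 of 427 on day 20 (20.1%, 16.4 to 24.3%). Day 13 lay apart from both of its neighbours. Without thinning the shares were 43.4%, 11.9% and 50.5%. Macrophages and fibroblasts were also lower on day 13 than on days 8 and 20. Macrophages had 1.56, 15.4, 2.0 and 12.5 CPM on the 4 days and fibroblasts 0, 8.26, 1.88 and 9.90, both under 20 CPM and so not called. Airway secretory cells had 12.6 CPM on day 13 and 125 on day 20. In macrophages thinned to the same depth, from medians of 17005, 7792 and 9959 UMIs on days 8, 13 and 20, the share was 3.35%, 0.356% and 2.57%, and in fibroblasts, from 18192, 17214 and 18938 UMIs, it was 1.28%, 0.452% and 2.30%. The interval of the AT2 share of day 13 holds the macrophage and fibroblast shares of that library. Since each of these gates was low on day 13, the low cannot be told apart from a property of that library.

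Macrophages also had their highest enzyme levels on day 8. On day 8 against day 0, 16 of 26 tested members were called higher and 1 lower, where 10.2% and 19.3% of all genes were called. The median log2 ratio was 1.60 for the enzymes and 1.28 for the HIF-induced genes. Pgk1 was at 94.8, 829, 305 and 332 CPM on the 4 days, 8.75-fold higher on day 8. Pgam1 was at 139, 961, 438 and 439 CPM and Tpi1, the isomerase of the triose phosphates, at 109, 692, 349 and 355 CPM, 6.90-fold and 6.37-fold higher. Ldha was at 275, 1203, 549.5 and 643 CPM, 4.37-fold higher. In each of the 4 enzymes day 8 was highest and days 13 and 20 lay between it and day 0. The 2 HIF-induced genes called were Bnip3 (11.4, 76.1, 43.9 and 55.8 CPM) and Ndrg1 (9.34, 36.2, 13.6 and 10.1 CPM), and the member called lower was Ldhb.

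On day 13 against day 8, 12 of 26 tested members were called lower in macrophages and 1 higher (6.62% and 4.3% of all genes). Of the 12, 8 were enzymes, and the median enzyme ratio was -1.06 on the log2 scale. Aldoc, the aldolase best known from brain, fell by 2.16 and Pfkp by 1.81 on that scale, from 71.2 to 15.9 and from 76.9 to 21.9 CPM. Slc16a3 was at 33.9, 92.6, 24.9 and 32.1 CPM and Slc2a1 at 7.0, 31.6, 6.73 and 15.3 CPM, so both lay near or below their day 0 level on day 13. Pfkfb3 was the 1 member called higher, at 19.6, 10.1, 31.2 and 27.7 CPM. On day 20 against day 13 no member was called in either direction, where 1.73% and 0.957% of all genes were. These gates differ in kind as well as in day. The 15 macrophage markers, all detected, summed to 20092, 12305, 13446 and 13967 CPM over the 4 days, airway secretory markers in the gate to 6574, 132, 955 and 269.5 CPM, and cells with at least 3 cycling markers made up 3.67%, 54.2%, 6.57% and 12.7% of the gate. Whether the make-up of the gate has a part in these ratios was not tested.

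In fibroblasts most of the enzymes were called higher in culture and most of the HIF-induced genes were not called. On day 8 against day 0, 13 of 26 tested members were called higher and 3 lower, where 15.5% and 30.6% of all genes were called. Enzymes had a median log2 ratio of 2.19 and HIF-induced genes one of 0.54. Of the 10 HIF-induced genes 8 were tested and 1 was called (P4ha2, 49.3 against 20.6 CPM). In the day 0 fibroblast gate 3 UMIs are 8.85 CPM, which limits calls of genes at low levels. Pgk1 was at 41.3, 669, 575 and 570.1 CPM, 16.2-fold higher on day 8. Eno1 was at 29.5, 265, 205 and 140.0 CPM, Ldhb at 44.2, 397, 370.5 and 293.5, and Pkm, the last ATP-making enzyme, at 88.5, 756, 588 and 575. In all 4 the day 0 cells were lowest and the intervals of day 0 lay below those of each culture day. The 3 called lower were Pfkfb3 (100.3, 3.54, 8.52 and 4.72 CPM), Hk2 and Pfkp. Day 0 holds the lung's own fibroblasts and the cultures were seeded with the MLg line, so day and source of fibroblast cannot be told apart. On days 13 and 20 no member was called against the day before, where 0.759% and 0.775% of all genes were called higher and 0.406% and 0.613% lower.

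Within a library of the cultures, macrophages and fibroblasts had lower HIF-induced genes than AT2 cells and enzyme medians nearer to them. Macrophages had 11, 12 and 13 members called lower than AT2 cells on days 8, 13 and 20 and 1, 1 and 2 called higher, where 16.9%, 18% and 16.9% of all genes were lower and 23.9%, 25.1% and 29.2% higher. The median log2 ratio was -0.06, -0.67 and -0.34 for the enzymes and -1.52, -1.68 and -1.93 for the HIF-induced genes, while the all-gene medians were 0.22, 0.23 and 0.43. Fibroblasts had 13, 9 and 11 members called lower than AT2 cells and 1 higher on each day, where 15.7%, 16.1% and 16.6% of all genes were lower and 24.3%, 30.4% and 31.9% higher. Their enzyme medians were -0.59, -0.36 and -0.25, their HIF-induced medians -1.10, -1.16 and -1.25, and the all-gene medians 0.36, 0.49 and 0.48. Among the HIF-induced genes P4ha2 was low in macrophages, at 5.44, 4.32 and 4.92 CPM against 75.6, 63.4 and 79.2 in AT2 cells. Higd1a was at 154, 131 and 164 CPM in macrophages and 175, 159.7 and 232 in fibroblasts against 892, 711 and 755 in AT2 cells. A few enzymes ran the other way: Pgam1 was at 961 CPM in macrophages of day 8 against 451 in AT2 cells, and at 594 in fibroblasts of day 20 against 237.

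Between epithelial types of 1 library the counts of called members were mostly near the shares over all genes, and single members stood apart. On day 13 airway secretory cells had 6 of 29 tested members called higher and 4 lower than AT2 cells (17.9% and 8.26% of all genes) and basal cells 8 and 4 of 29 (24% and 13%). Egln3 was at 111 CPM in secretory and 82.2 in basal cells against 33.2 in AT2 cells, and Ndrg1 at 47.6 and 56.8 against 12. P4ha1 was lower in both, at 31.7 and 33.7 against 88.4 CPM. Basal cells also had more Pgam1 (607 against 250.3 CPM), Eno1 (374 against 130.2) and Pkm (1201 against 547). On day 20 secretory cells had 2 of 30 tested members called higher and 2 lower than AT2 cells (13.7% and 8.66% of all genes), Egln3 reaching 325 CPM, its highest level among the gates of at least 50 cells. From day 13 to day 20 the secretory gate had 3 members called higher and 2 lower (3.91% and 6.87% of all genes). The 3 were HIF-induced: Ankrd37 (12.6 to 125 CPM), P4ha2 (44.9 to 127) and Egln3 (111 to 325). The 2 lower were enzymes, Aldoc (143 to 64.9) and Eno1 (195 to 77.4).

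Paralogs were used unequally. Slc2a3 had 74.2 to 133 CPM in cultured AT2 cells, but 0 or 1 UMI in secretory cells of days 13 and 20, 2 UMIs in basal cells and at most 0.29 CPM in fibroblasts. Slc2a1 thus made up 35.9%, 9.67% and 15% of the pair's UMIs in AT2 cells on days 8, 13 and 20 and 97.6% or more in the secretory, basal and fibroblast gates of the cultures. In cells thinned to 2000 UMIs Slc2a3 was seen in 11.3%, 16.6% and 16.2% of AT2 cells and 29.7%, 41.2% and 41.0% without thinning, with a median depth of 11373 to 14534.5 UMIs. The thinned share was 0 of 392, 0 of 885 and 3 of 2393 fibroblasts, whose median depth was 17214 to 18938 UMIs. Macrophages had 2.86 to 4.83 CPM of Slc2a3 in culture. AT2 cells thus had the highest Slc2a3 level among these gates on days 8, 13 and 20. The lymphoid gate of day 20, a gate otherwise left out here (65 cells), had 150.2 CPM. On day 0 the AT2 gate held none of it in 389089 UMIs, where the floor of 3 UMIs is 7.71 CPM.

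**Figure D3:**
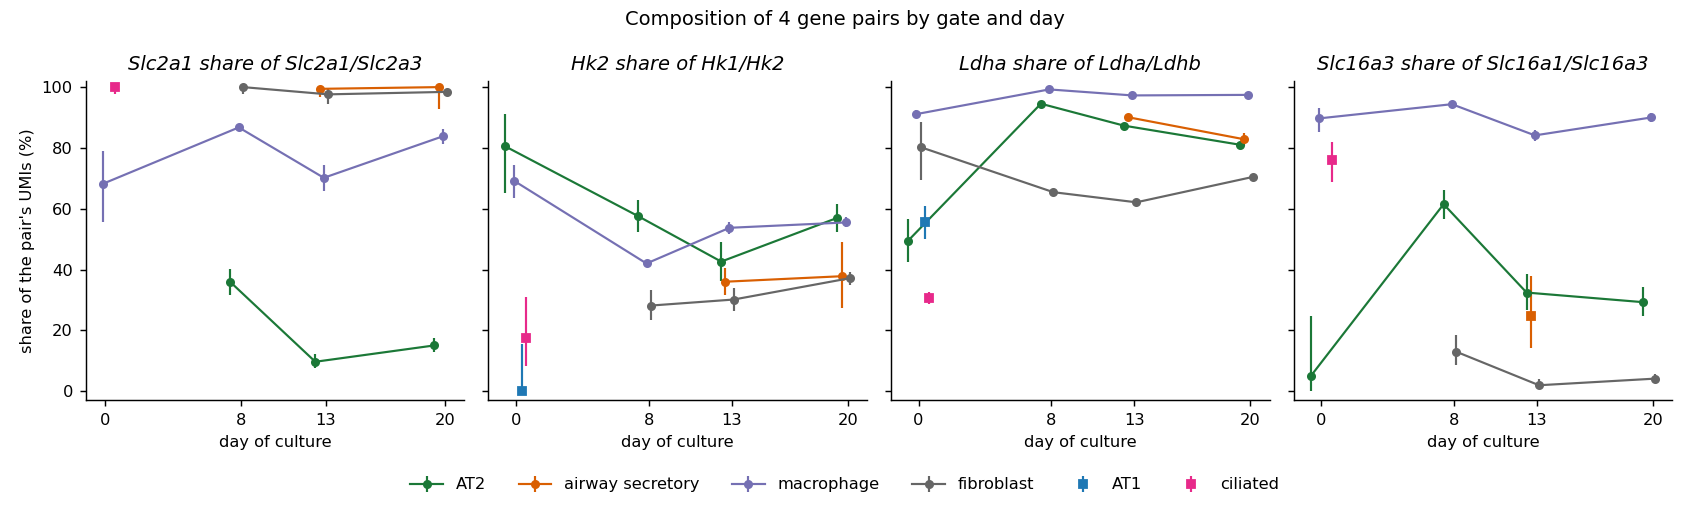
Share of a gene pair's UMIs (vertical axis, percent, with 95% Clopper-Pearson intervals) taken by the gene in each title, by day and gate; points need at least 50 cells and 10 UMIs of the pair. The Ldha share of AT2 cells lies at 49.5% on day 0 and at 81.0% or more in culture, and the Slc2a1 share of cultured AT2 cells lies below that of the other gates drawn; the lymphoid gate of day 20, not drawn, lies at 13%.

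Ldha took 49.5% of Ldha and Ldhb UMIs in AT2 cells on day 0 and 94.5%, 87.3% and 81.0% in culture. Ldha was lower and Ldhb higher on each later culture day, by sizes that were not called. In macrophages the share was 91.1%, 99.2%, 97.3% and 97.4%, and in ciliated cells of day 0 it was 30.8%. Fibroblasts went the other way, from 80.3% to 65.4%, 62.1% and 70.4%. The make-up of the lactate transporter pair also differed between days in AT2 cells, where Slc16a3 exceeded Slc16a1 on day 8 only. Slc16a3 made up 1 of 20 UMIs of the pair on day 0, then 61.5%, 32.4% and 29.3%, whereas it was 84.1% or more in macrophages on each day and 13.0% or less in cultured fibroblasts. Hk2 was 80.5% of the hexokinase pair in AT2 cells on day 0 and 42.6% to 57.5% in culture, and 69.3% in macrophages on day 0 and 42.0% to 55.5% after. Egln3 was 0 of 32 UMIs of the Egln1 and Egln3 pair in AT2 cells on day 0 and 33.2%, 23.4% and 39.6% in culture. In macrophages Bnip3 was 3.66%, 33.5%, 25.5% and 29.7% of the Bnip3 and Bnip3l pair, and Pfkl was 19.4%, 42.3%, 64.5% and 50.2% of the UMIs of Pfkl, Pfkp and Pfkm.

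Within a library, cycling AT2 and airway secretory cells had less of several HIF-induced genes than cells without cycling markers, and macrophages had no HIF-induced gene called. AT2 cells of day 8 with at least 3 cycling markers (73 cells) had 3 members called lower than those with none (118 cells) and none higher, where 2.48% and 9.7% of all genes were called. Ankrd37 was at 36 against 122 CPM, Ero1l at 104 against 234, and Ndrg1 at 18.4 against 39.1. The median was -0.86 for the HIF-induced genes, 0.03 for the enzymes and 0.15 over all genes. Airway secretory cells of day 13 (57 against 126 cells) had 7 called lower and none higher (6.32% and 7.6% of all genes), with medians of -0.97 and -0.23. Ndrg1 was at 9.75 against 77.9 CPM, Bnip3 at 29.3 against 124, and Ero1l at 89.7 against 288. Basal cells of day 13 (61 against 56 cells) had Ndrg1 and Aldoc called lower and Slc16a3 higher (6.41% and 7.99% of all genes), with a HIF-induced median of -0.12. Macrophages of day 8 (3519 against 884 cells) had no member called in either direction (1.08% and 4.44% of all genes), with medians of 0.03 and 0.05. Those of day 20 (572 against 2390 cells) had none (0.397% and 4.82%) and those of day 13 (381 against 3363 cells) had Ldhb higher (5.78%). In fibroblasts 2 of 25 and 1 of 23 tested members were called lower in cycling cells on days 8 and 13, below the 14.9% and 11.3% of all genes. The count of day 20 was 3 of 22, near the 13.4% of all genes. On day 13 the enzymes Tpi1 (648 against 310.5 CPM), Pgam1 (688 against 316) and Ldha (852 against 407) were called higher (7.47% of all genes). P4ha2 was lower in cycling fibroblasts on each day, at 28.5 against 88.5, 23.4 against 63.6 and 21.0 against 78.3 CPM. Cycling cells were also deeper in each of these comparisons, for example 13307 against 9050 UMIs in AT2 and 19367 against 12639 in secretory cells. The part of depth in these ratios was not tested. In fibroblasts thinned to 2000 UMIs 1 member was called lower on day 8 and 2 on day 20, and none was called higher on day 13. Cycling markers were counted again after thinning. The sides thus did not hold the same cells, and these counts cannot show the part of depth.

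**Figure D4:**
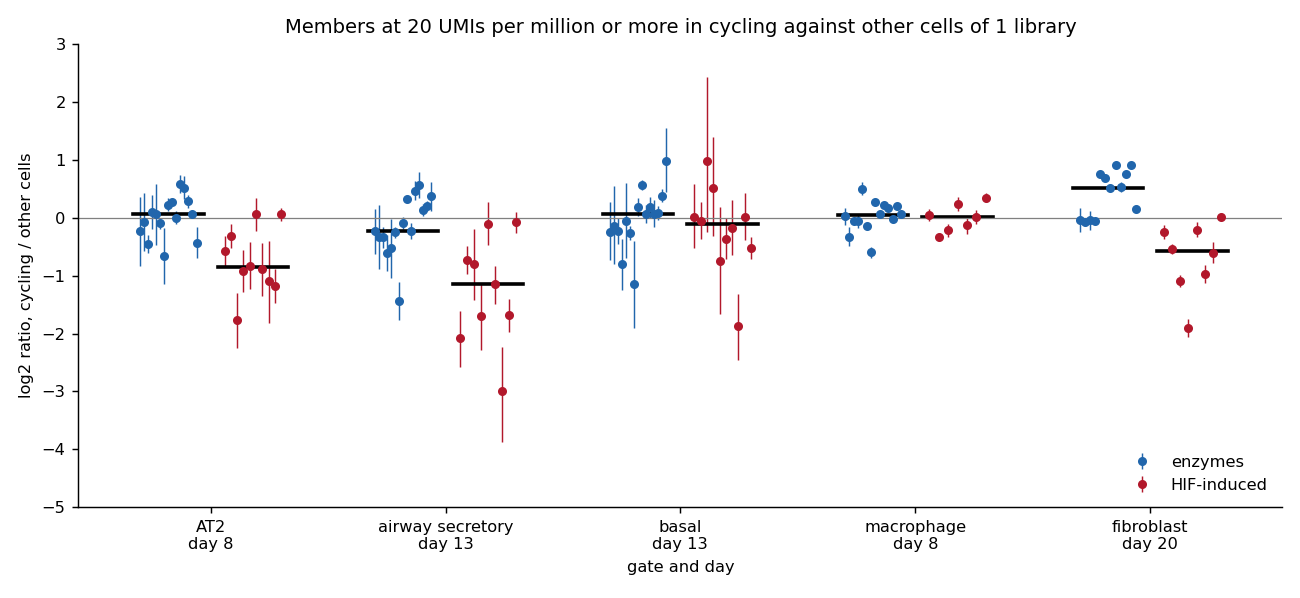
Log2 ratio of CPM (vertical axis) in cells with at least 3 cycling markers against cells with none of the same gate and library, for enzymes (blue) and HIF-induced genes (red) with at least 20 CPM on a side; bars are 95% intervals and black lines medians. HIF-induced genes lie mostly below 0 in AT2, secretory and fibroblast cells, and around 0 in macrophages of day 8.

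AT2 cells that held a UMI of Egln3 also held more of several other HIF-induced genes on days 8 and 20. The cells of day 20, each thinned to 2000 UMIs, were split by whether they held a UMI of Egln3 (57 with and 370 without), a split chosen after earlier results were known. Of the 9 other HIF-induced genes, 7 had a ratio with an interval above 0, and P4ha1 (0.48) and P4ha2 (0.74) had intervals that include 0. Cells with Egln3 had 140.4 CPM of Ndrg1 against 29.7, 377 of Ankrd37 against 131, 395 of Bnip3 against 149, and 439 of Ero1l against 177. On the log2 scale these ratios were 2.24, 1.52, 1.41 and 1.31, each with an interval above 0. Enzymes were higher in them as well, by 1.28 for Pgk1, 0.75 for Ldha and 0.73 for Gapdh, while Slc2a3 (-0.37, interval -1.42 to 0.54) and Ldhb (-0.21, interval -0.81 to 0.35) had intervals that include 0. On day 8 (32 against 251 cells) the same ratios were 2.10 for Ndrg1, 1.59 for Ankrd37, 1.42 for Bnip3 and 0.87 for Ero1l. There 5 of 9 had an interval above 0, and Higd1a, P4ha1, P4ha2 and Egln1 (-0.95) did not. On day 13 (14 against 293 cells) 2 of 9 did, Bnip3 and Ero1l, and Ndrg1 had no UMI in the cells with Egln3. In airway secretory cells 2 of 9 did on day 13 and 0 on day 20, and in basal cells 0 of 9. In epithelial cells that no type gate took, 4, 5 and 7 of 9 did on days 8, 13 and 20. Basal cells of day 13 (18 against 135 cells) had a Gapdh ratio of -0.01. The split uses a member of the list, and the cells share a library. The share of all genes with an interval above 0 was not computed, so these counts have no baseline beside them.

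The 7 gene lists around the pathway were compared in the same way. In AT2 cells of day 8 against day 0, where 11.7% of all genes tested were higher and 18% lower, 14 of 30 further hypoxia genes reached the minimum to be tested. Of these 5 were called higher and 1 lower, among them the secreted Stc2 (0 to 49.2 CPM), Selenbp1 (501 to 3135) and the cytokine Mif (208 to 1034), while the lipoprotein receptor Vldlr was lower (43.7 to 18.2). On day 20 against day 13, 5 of 16 tested were higher and none lower, among them Adm, the vasodilator peptide adrenomedullin (5.46 to 33.2 CPM), Vegfa, the main angiogenic factor (60.9 to 165), Gbe1 of glycogen branching (15.5 to 40.2) and the HIF-induced demethylase Kdm3a (11.8 to 30.4). Of 10 genes of the HIF machinery 5 were tested, and Epas1 (188 to 77.7 CPM) and Arnt (30.8 to 14.0) were lower on day 8 and none was higher. Of 16 respiratory chain genes, all tested, 7 were higher on day 8 and none lower, among them Cyc1 (82.2 to 237 CPM), Atp5b (242 to 675), Cox5a (231 to 626) and Uqcrc1 (56.5 to 145), with a median log2 ratio of 0.94 over the list. Pyruvate entry had 2 of 8 tested genes higher (Mpc1 and Cs), the pentose phosphate pathway 1 of 7 (Pgls) and the Myc-linked genes 1 of 5 (Nop56), counts too small to set apart from the share over all genes. Of 6 genes tested in AT2 cells among other isoforms and gluconeogenesis, Pgm1 was higher and Pfkfb2 and Bpgm were lower. In macrophages 5 of 7 tested were higher on day 8, among them Hk3 (17.3 to 138 CPM), and 1 was lower, Eno3 (55.4 to 3.67). Over all genes 10.2% were higher and 19.3% lower there. Of 14 further hypoxia genes tested in macrophages, 4 were higher and 6 lower on day 8 (10.2% and 19.3% of all genes). The lower ones included Angptl4 (33 to 1.52 CPM), Ddit4 (23.5 to 1.46) and Bhlhe40 (106 to 17.7), and the higher ones Mif (154 to 789.5). In fibroblasts 3 of 19 tested were higher and 9 lower on day 8 (15.5% and 30.6% of all genes). Respiratory chain genes were higher for 9 of 16 in fibroblasts, none being lower, and none was called in macrophages. Of 5 Myc-linked genes tested in fibroblasts 4 were higher and none lower.

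The surfactant genes take a large part of AT2 RNA. With mitochondrial, ribosomal and the 20 most abundant genes left out of the total, the median of all genes moved by 0.54 on the log2 scale for AT2 against AT1 cells of day 0 (from -0.46 to 0.08) and by -0.38 to -0.18 for the other types against AT2 cells in culture, so ratios between types are relative to that. Reads of Gapdh, Pgk1, Ldha, Aldoa, Pkm, Tpi1, Pgam1 and Eno1 can also match near-identical processed copies elsewhere in the mouse genome, and the counting drops or assigns such reads in a way the files do not show, so their absolute levels are uncertain. Fewer transcripts per cell and more total RNA per cell cannot be told apart in CPM.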

How the data were processed

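Single-cell 3′ libraries of 4 days were used, 1 library per day. The authors deposited filtered matrices of raw counts (UMIs of a gene in a barcode), made with Cell Ranger 7.0.1 on mm10, per the submitters' processing notes. For the annotation release, and for whether free RNA or doublets were removed, the entry is: not given in the sources used here. The labels name nuclear RNA as the molecule, while the protocols describe cell suspensions.

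Barcodes with at least 500 genes and at most 15% mitochondrial UMIs were kept. A cell entered a lineage gate with at least 3 of its markers detected and a share of markers detected at least 2 times that of the next lineage, and an epithelial type at 1.5 times. UMIs were summed per gate and library and compared where both sides had 50 cells. A ratio was called at 2-fold, with 20 CPM on the larger side and a 95% exact conditional Poisson interval that excludes 1. A side under 3 UMIs was set to that floor, so a fold from such a side depends on the floor and is not a lower limit. No test was run, since each day is 1 library. For shares of cells, every cell was thinned to 2000 UMIs. Doublets were kept, and removal of the top Scrublet scores (0.8% per 1000 barcodes) was an alternative. The calling step was tested on simulated Poisson counts, which hold no gating error and no spread between cells or libraries. Ero1l was read by its Ensembl ID, and the IDs that share the symbol Aldoa were summed. Promoters came from RefSeq (GRCm38.p6), which matched 30 of 33 members. Python 3.11.15, scanpy 1.11.5, scipy 1.17.1, numpy 2.4.6 and pandas 2.3.3 were used.

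The members, the pathway lists and the marker lists were chosen with earlier results of these data known. All members are accounted for by range or count. Those named in full are, per comparison, the 4 enzymes and 4 HIF-induced genes with the largest called ratio, any called against the direction of most, transporters and switches, and both genes of a family whose make-up differs by over 20 percentage points. Up to 4 genes per other list are named by ratio. A gene of the further hypoxia list is counted there but not reported here by name. The gates reported are the epithelial types, macrophages, fibroblasts and endothelium. Lymphoid, mesothelial, granulocyte and mural gates were left out.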

Additional observations from a re-analysis of the deposited data

Results flagged for a closer look

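Members called in opposite directions in different gates on day 8 against day 0 were picked out, and the difference between gates was not tested. Ldhb, the subunit that favours lactate use, was called lower in macrophages (log2 ratio -1.54, from 26.8 to 9.21 CPM) and higher in fibroblasts (3.17, from 44.2 to 397 CPM). The call in macrophages was lost with the larger margin between gates (-0.93), with free RNA subtracted (-1.61) and at a 3-fold threshold. Pfkp, an isoform of phosphofructokinase, was called higher in AT2 cells (2.52, from 3 UMIs on day 0) and lower in fibroblasts (-1.18, from 44.2 to 19.5 CPM). The call in fibroblasts was lost with abundant genes left out of the total (-0.99), with the mean of CPM per cell (-0.50), at 3-fold, with thinned cells (-1.23) and with cycling cells left out (-0.73).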

How the results depend on the processing

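No paired analysis was possible because each day is 1 library and no replicate was made. The AT1 and ciliated comparisons between days were not run, since fewer than 50 gated cells remained in culture, and some settings left too few cells for a value. Thinning to 2000 UMIs, leaving out cells with a cycling marker and the Egln3 split were chosen after seeing the data. Over 13 settings, 358 of 435 recomputed counts of called members and shares stayed close to the value reported, a count within 1.5 times it and a share within its 95% Clopper-Pearson interval, and 77 did not. Of 1095 recomputed values of 85 called ratios between days, 1025 kept their call, 70 lost it and 0 reversed. Part of these totals was fixed in advance. At 1.5-fold and with no minimum CPM a call could not be lost. In those settings and at 3-fold the ratio itself is unchanged, so it could not reverse. The causes were not tested. Depth limits the day 0 AT2 gate, where 3 UMIs are 7.71 CPM, and the day 0 fibroblast gate, where they are 8.85 CPM.

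At 1.5-fold and 3-fold the AT2 counts were 16 and 2 (lower, day 13) and 6 and 1 (higher, day 20), and the secretory count of day 20 was 5 and 1. At 3-fold the macrophage counts were 10 (higher, day 8) and 4 (lower, day 13). The macrophage count of day 20 was 1 at 1.5-fold, 1 with abundant genes left out of the total and 2 with no minimum CPM, which gave 1 for fibroblasts of days 13 and 20. The secretory count was 5 with at most 10% mitochondrial UMIs. Against AT1 cells the macrophage count (higher) was 8 with abundant genes left out, 8 with no minimum and 3 at 3-fold, and the fibroblast count (lower) 2 at 3-fold. Against AT2 cells the fibroblast counts (lower) were 20 at 1.5-fold on day 8, 15 and 5 at 1.5-fold and 3-fold on day 13, and 6 at 3-fold on day 20. The secretory counts (higher) were 3 at 3-fold on day 13, and on day 20 were 4 with no cell filter, 1 with the mean of CPM per cell, 6 at 1.5-fold and 1 at 3-fold. The basal count was 5 with abundant genes left out and 2 at 3-fold.

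Between cycling and other cells, the AT2 count (lower) was 1 with at most 10% mitochondrial UMIs, 5 with abundant genes left out, 5 with the mean of CPM per cell, 7 at 1.5-fold and 1 at 3-fold. The secretory count was 11 and 4 at 1.5-fold and 3-fold, and the basal count 4 with the mean per cell and 1 at 3-fold. The macrophage count (higher) of day 13 was 0 without the top Scrublet scores, with the larger margin, with the mean per cell and at 3-fold, and 3 at 1.5-fold or thinned. That of day 20 was 1 with free RNA subtracted and 1 at 1.5-fold. The fibroblast count (lower) of day 8 was 1 with no cell filter, thinned or at 3-fold, 4 with abundant genes left out, and 5 at 1.5-fold or with no minimum. On day 13 the count (higher) was 1 with the mean per cell, 8 at 1.5-fold and 0 at 3-fold or thinned. On day 20 the count (lower) was 5 with the mean per cell, with no minimum and at 1.5-fold, and 1 at 3-fold. In the thinned setting the cycling markers were counted again after thinning, so its sides hold other cells.

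Without thinning, Ankrd37 was seen in 43.4%, 11.9% and 50.5% of AT2 cells on days 8, 13 and 20 and Slc2a3 in 29.7%, 41.2% and 41.0%. Thinned to 1000 UMIs, Ankrd37 was in 8.68% on day 8 and 10.9% on day 20, and Slc2a3 in 5.21%, 11.9% and 7.66%. With free RNA subtracted the Ldha share was 93.6%, 99.5%, 98.4% and 98.1% in macrophages and 63.2% and 61.0% in fibroblasts of days 8 and 13.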
